A study of Mus musculus with 12 samples.

Results

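Developmental transcription factors are grouped into families by the domain with which they bind DNA, such as the HMG box of the Sox proteins, the forkhead domain of the Fox proteins, the homeodomain of the Lhx, Dlx, Pou and Pbx proteins and the basic helix-loop-helix (bHLH) domain of the Olig and Hey proteins. Different members of 1 family mark different lineages, so a sorted population can be read by which members it holds. In the adult dentate gyrus, the part of the hippocampus where granule neurons are made throughout life, such factors mark radial glia-like stem cells, dividing intermediate progenitors, young neurons, oligodendrocyte precursors and resident macrophages. Genes of the deposited table were taken as members when their mouse symbol matched a fixed pattern of family names (Sox, Nkx, Lhx, Hox, Dlx, Pou, Fox, Olig, Bhlh, Nfi, Zic, Prox1, Tbr1, Meis, Pbx, Otx, Bcl11, Hey, Tcf, Runx, Spi1, Maf, Cebp and related names) and they were above 0 in at least 4 libraries. Sox1, Sox2, Sox9 and Pax6 were left out by name. Of 10749 genes in the table, 60 matched the pattern, 4 of them were above 0 in fewer than 4 libraries, 4 were left out by name, and 52 remained. These were 45 protein-coding genes and 7 RNA genes that carry the name of a neighbouring factor (Foxd2os, Lhx1os, Nkx2-2os, Otx2os1, Prox1os, Sox1ot and Sox6os).

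All 3 groups came from the dentate gyrus of LPA1-GFP mice aged 8 weeks, STOCK Tg(Lpar1-EGFP)GX193Gsat/Mmucd, of FVB/N-Swiss Webster background and rederived into C57BL/6. Green fluorescent protein in these mice is driven by a transgene with Lpar1 sequences, so it reports the activity of that transgene. Cells labelled stem were LPA1-GFP+EGFR+Prominin1+. Cells labelled progenitor joined the other 3 combinations of GFP-positive cells, LPA1-GFP+EGFR+Prominin-1-, then LPA1-GFP+EGF-Prominin-1+ (spelled so in the labels), then LPA1-GFP+EGFR-Prominin-1-. Cells labelled niche were LPA1-GFP-, which includes every dentate gyrus cell type without the reporter. Each group had 4 libraries, each from the amplified RNA of 1000 cells. Whether a replicate was 1 animal or a pool is not in the labels, so p-values measure only the spread between these samples. In bulk samples, fewer cells of a type and less RNA per cell cannot be told apart.

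Of the 10579 listed genes with a position in the annotation of GRCm38, 10573 lay on the plus strand and 6 on the minus strand, although the annotation holds 27815 plus and 27635 minus genes. All 52 members were plus-strand genes. Among 22 best-known factors of these families, 7 were listed (Cebpa, Foxf2, Foxm1, Nfia, Olig1, Olig2 and Spi1). Another 14 are minus-strand genes, among them Neurod1, Prox1, Sox4, Sox10, Sox11, Nfib and Runx1, and these and Foxc1 are not analysed here. What follows therefore describes the members in the table and not the families as wholes.

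Library totals ran from 7597256 to 22854036 reads, and 8037 to 9700 genes were above 0. Niche replicate 1 stood apart: alpha-globin genes took 33.0% of its reads, against 2.62% to 10.9% in the other niche libraries and at most 0.228% in the stem and progenitor libraries. Progenitor replicate 1 was set apart from its group in earlier results of these data, and the counts of called members are also given without both libraries. The labels were checked against marker lists. RPKM is reads divided by exon length and by library total, and levels and sums given in RPKM were also scaled by trimmed means of M-values (TMM). The 11 listed macrophage genes summed to between 3818 and 14895 RPKM in the libraries labelled stem. They summed to between 169 and 420 in progenitor and to between 3469 and 5985 in niche. Of their defining markers, Csf1r and Tyrobp were above 0 in every library. The 7 listed cell cycle genes summed to between 596 and 1039 in stem, 177 and 304 in progenitor and 7.79 and 87.2 in niche.

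Of the 52 members, 45 passed the filter on low values and were tested. In stem against progenitor, 6 members passed the test at an adjusted p of 0.05 (13.3% of those tested, where 7.1% of all 8364 tested genes were called). Cebpb, Foxm1 and Spi1 were higher in stem (3 members, 6.67%, against 3.71% of all genes), and Heyl, Prox1os and Tbr1 were lower (3 members, 6.67%, against 3.4%). In stem against niche, 9 members were called (20.0%, against 21.6% of all genes). Foxm1, Nfia, Pbx4, Sox1ot, Tcf4 and Zic2 were higher in stem (13.3%, against 10.9%), and Bhlhe40, Lhx1os and Olig1 were lower (6.67%, against 10.7%). In progenitor against niche, 13 members were called (28.9%, against 11.4% of all genes). Of these, 7 were higher in progenitor (15.6%, against 5.64%), among them Lhx2, Nfia, Pou3f3, Sox1ot, Tcf4 and Zic2, and Bhlhe40, Cebpb, Lhx1os, Olig1, Olig2 and Spi1 were lower (13.3%, against 5.75%). Without niche replicate 1 and progenitor replicate 1 together, 9, 20 and 18 members were called in the 3 comparisons (20.0%, 44.4% and 40.0%), where 13.5%, 36.2% and 24.0% of all genes were. With all libraries, the median log2 fold change over the tested members was -0.13 in stem against progenitor (-0.06 over all genes), 0.09 in stem against niche (0.09) and 0.17 in progenitor against niche (0.15). The 3 comparisons share libraries in pairs, so their calls are not independent of each other. Scaling by library total alone gave 10 higher and 2 lower members in stem against niche and 9 higher and 3 lower in progenitor against niche, in place of 6 and 3, and 7 and 6. That scaling moved the median of all genes to 0.58 and 0.62.

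**Figure D1:**
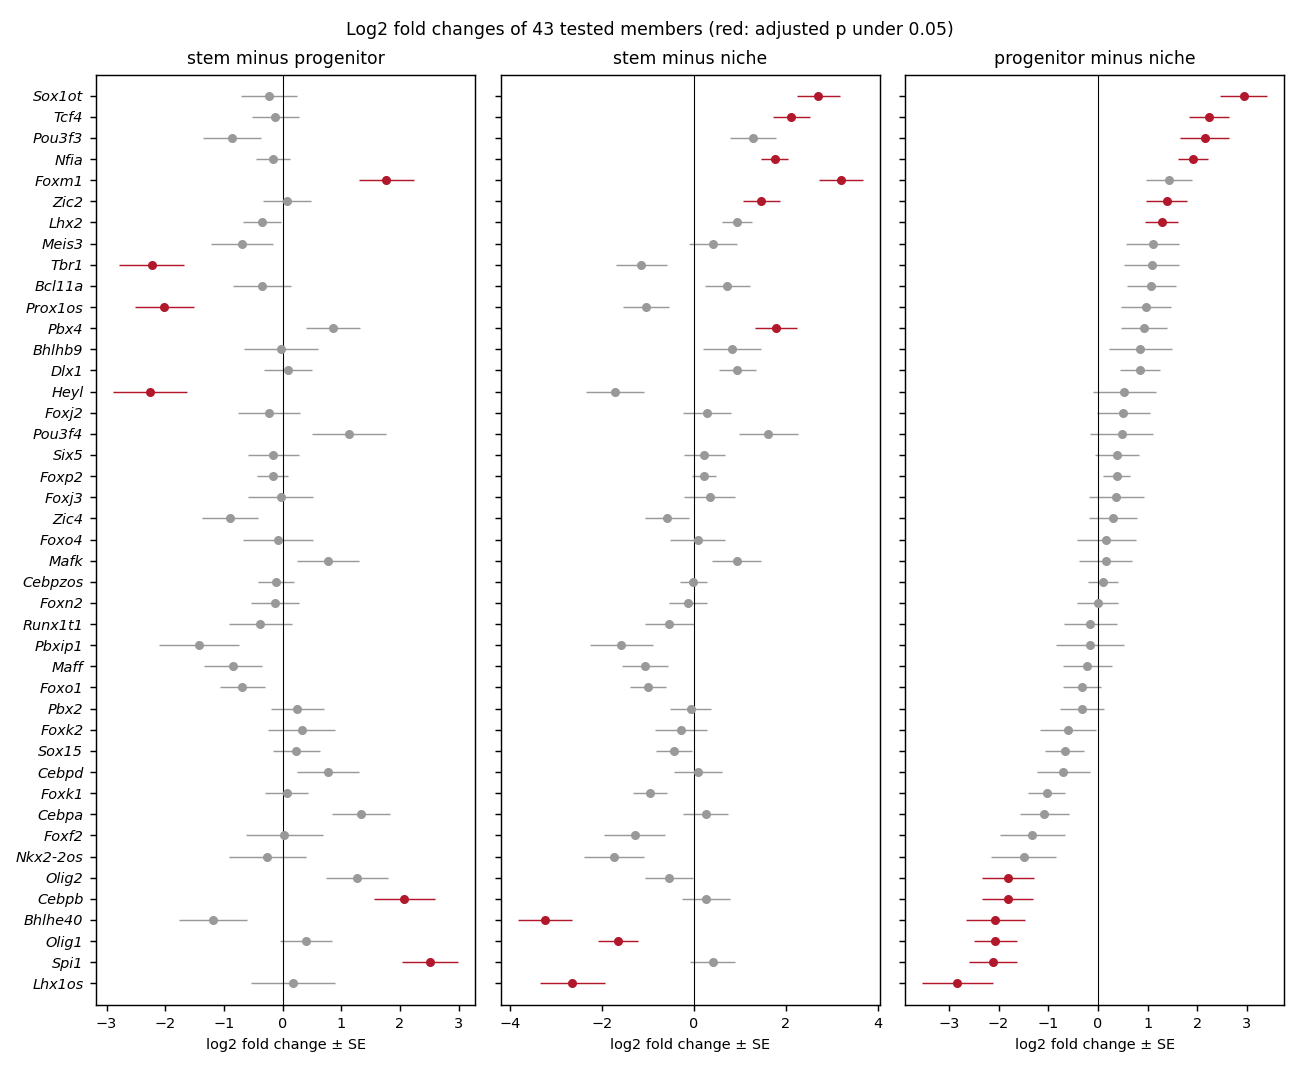
Log2 fold changes of 43 of the 45 tested members (points) with their standard errors (lines) in the 3 comparisons, on the log2(RPKM + 1) scale, ordered by progenitor minus niche, with members at an adjusted p under 0.05 in red. Sox1ot had the highest and Lhx1os the lowest value in progenitor minus niche, and Spi1 and Heyl had the extreme values in stem minus progenitor.

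Of the 4 tested factors of the myeloid lineage, 2 were higher in stem than in progenitor and lower in progenitor than in niche. None was called in stem against niche. Of all genes, 3.71% and 5.75% were called in these directions, and 21.6% were called in stem against niche. Spi1, which encodes PU.1, the ETS factor required for macrophages and microglia (chr2:91082390-91115756, plus strand), was at 3.56, 15.0, 4.95 and 4.60 TMM-scaled RPKM (RPKM scaled by trimmed means of M-values) in stem replicates 1 to 4. It was at 0.0729, 0.331, 0.160 and 0.403 in progenitor and at 6.96, 2.58, 3.09 and 5.85 in niche. Every stem and niche library was above every progenitor library, and stem and niche overlapped. The log2 fold change was 2.51 ± 0.48 (SE, limma adjusted p = 0.00438) in stem against progenitor and -2.11 ± 0.48 (adjusted p = 0.00998) in progenitor against niche. Both calls held in all 21 alternatives run.

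Cebpb, a bZIP factor of macrophage activation and of acute-phase genes (chr2:167688915-167690418, plus strand), was at 13.4, 44.5, 17.1 and 8.15 RPKM in stem. It was at 2.73, 4.20, 3.02 and 3.42 in progenitor and at 13.6, 28.0, 11.7 and 8.82 in niche. Again the progenitor libraries lay below all others, and stem replicate 2 was highest. The difference was 2.07 ± 0.51 (adjusted p = 0.0211) in stem against progenitor and -1.81 ± 0.51 (adjusted p = 0.0318) in progenitor against niche. The call against progenitor was lost without stem replicate 2 (0.0880) or 3 (0.0565) or without progenitor replicate 1 (0.0652), 3 (0.0619) or 4 (0.0504). The call against niche was lost without progenitor replicate 1 (0.0522), 2 (0.0653), 3 (0.0870) or 4 (0.0781) or niche replicate 2 (0.0712), with only the compared groups in the fit (0.0644), with voom on the recovered reads (0.0551) and with scaling by library total alone (0.104). Cebpb shares 312 of its 1504 exon bases with Tmem189 on the other strand, and the use of strand in counting is not given in the sources used here.

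Cebpa, the founding C/EBP factor of granulocyte and monocyte development, was at 3.89, 10.8, 4.47 and 4.27 RPKM in stem. It was at 1.78, 1.21, 1.76 and 1.42 in progenitor and at 5.44, 1.85, 3.20 and 9.66 in niche. The groups were ordered as for Spi1 and the progenitor libraries did not overlap with the others, but the differences did not pass the test (1.34 ± 0.49, adjusted p = 0.137, and -1.08 ± 0.49, adjusted p = 0.169). Cebpd, a C/EBP factor induced by inflammatory signals, ranged from 5.52 to 36.7 in stem, in progenitor 5.42 to 10.2 and in niche 6.61 to 19.3, and was not called in any comparison. Cebpzos, a small protein-coding gene beside Cebpz that matched by name, was at 61.8 ± 8.01, 69.3 ± 24.8 and 63.2 ± 13.7 (SD, n = 4) in stem, progenitor and niche.

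Macrophage markers moved with this group of factors in both comparisons with progenitor, but not in stem against niche. All 11 listed macrophage genes were higher in stem than in progenitor, and 8 were lower in progenitor than in niche. In stem against niche 4 were higher, with Cd163 (5.11 ± 0.60), Mrc1 (5.07 ± 0.50) and Pf4 (3.75 ± 0.66) the largest. Another 2, Ctss and Trem2, were lower. Stem replicate 2 had the highest macrophage sum (14895 RPKM) and was also highest in Spi1, Cebpb, Cebpa and Cebpd. Other transcription factors known from myeloid cells, from a list of 34 of which 17 were tested, were higher in stem than in progenitor in 10 cases and lower in none (median 1.85). Klf2 (3.31 ± 0.58), Stat6 (3.02 ± 0.74) and Egr2 (2.66 ± 0.55) had the largest changes. In progenitor against niche, 4 of the 17 were lower and none higher, with Klf2 (-2.42 ± 0.58), Lmo2 (-2.42 ± 0.45) and Mef2c (-2.34 ± 0.44) the largest. In stem against niche, 3 of the 17 (Egr2, Klf6 and Irf4) were higher and none lower. The part of macrophage RNA in the Spi1 and Cebpb results was not tested.

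The window of 250 bases before the start of Cebpb is shown because it is among the most G- and C-rich of those matched, at 81.6%. RefSeq promoter windows (GRCm38.p6) were matched for 32 of the 52 members, and all are given 5′ to 3′ on the strand of the gene. The window of Cebpb lies at chr2:167688665-167688914, plus strand, and holds none of the motifs searched on both strands. These were the bHLH site CANNTG (present in 66.2% of all 32817 windows), its form CACGTG (6.02%), the C/EBP core TTGCNNAA (9.57%), the CCAAT box CCAAT (33.8%), the SOX core AACAAT (9.43%) and the octamer ATGCAAAT (1.60%). CANNTG includes CACGTG, and the others can overlap each other.
Cebpb: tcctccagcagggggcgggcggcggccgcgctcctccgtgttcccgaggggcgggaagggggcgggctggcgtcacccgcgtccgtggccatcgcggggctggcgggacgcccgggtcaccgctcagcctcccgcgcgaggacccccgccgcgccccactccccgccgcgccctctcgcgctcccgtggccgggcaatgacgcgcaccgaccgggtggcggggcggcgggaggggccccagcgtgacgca

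**Figure D2:**
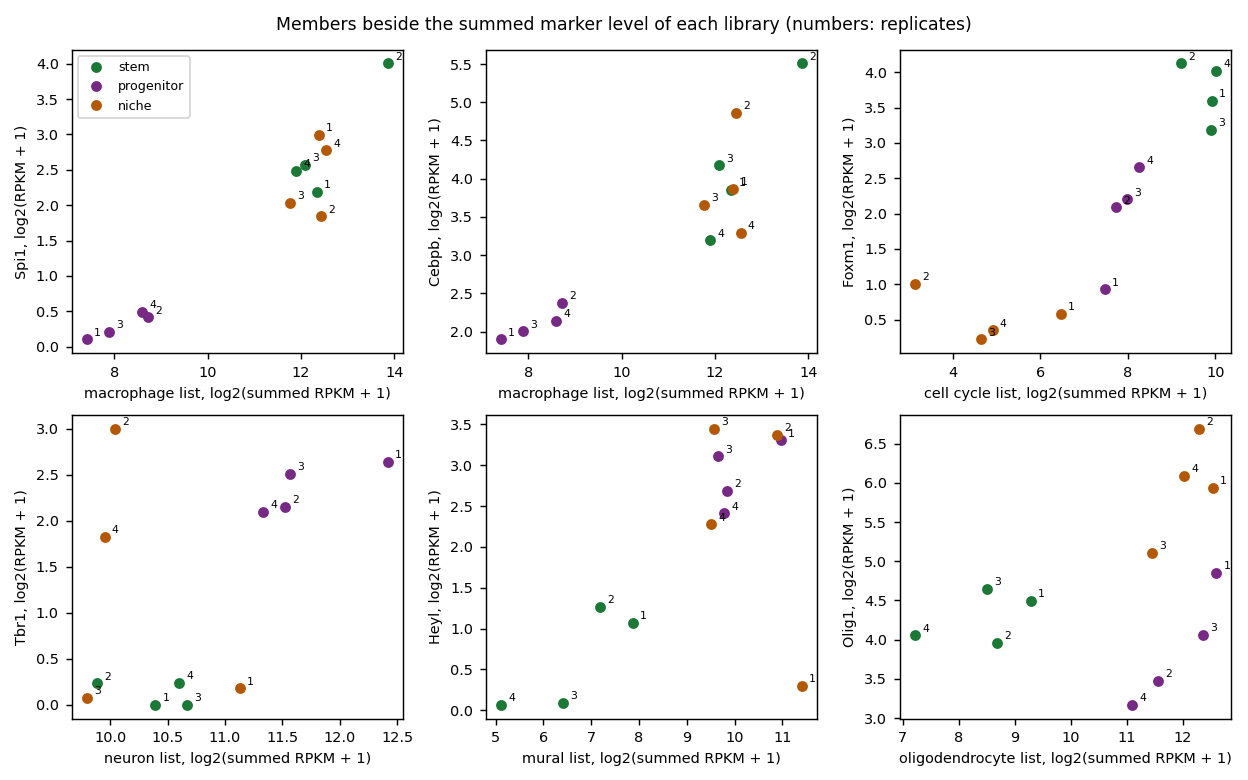
Level of 6 members, as log2(TMM-scaled RPKM + 1), against the summed level of a marker list in the same library, as log2(summed TMM-scaled RPKM + 1), with the 12 libraries coloured by group and numbered by replicate. The 4 progenitor libraries are lowest in both Spi1 and the macrophage list, and the 4 stem libraries are highest in both Foxm1 and the cell cycle list.

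Foxm1, the forkhead factor of the G2 and M phases of the cell cycle (chr6:128362967-128376146, plus strand), was higher in stem than in both other groups. It was at 11.1, 16.5, 8.09 and 15.3 RPKM in stem, at 0.901, 3.26, 3.60 and 5.31 in progenitor and at 0.494, 1.01, 0.163 and 0.275 in niche. The stem libraries lay above all others, and only progenitor replicate 1 and niche replicate 2 overlapped between the other groups. The difference was 3.19 ± 0.47 (adjusted p = 0.000152) in stem against niche, a call that held in all 21 alternatives, and 1.76 ± 0.47 (adjusted p = 0.0314) in stem against progenitor. The latter was lost without stem replicate 1 (0.0726), 2 (0.105) or 4 (0.0975) or progenitor replicate 1 (0.0917), 2 (0.0771) or 3 (0.0700) and with a pseudocount of 0.1 RPKM (0.114). In progenitor against niche the difference was 1.43 ± 0.47 (adjusted p = 0.0606). It was called without progenitor replicate 1 (0.0199) or niche replicate 1 (0.0460), at a pseudocount of 0.1 RPKM (0.0369), with voom (0.0378) and with scaling by library total alone (0.0220).

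Of the 7 tested cell cycle genes, 6 were higher in stem than in progenitor and all 7 higher in stem than in niche. Plk1, a mitotic kinase, was at 125 ± 42.5 RPKM in stem, 18.1 ± 5.76 in progenitor and 2.47 ± 1.76 in niche, which is the order seen for Foxm1. Rrm2, a subunit of ribonucleotide reductase, was at 339 ± 88.7, 87.0 ± 33.6 and 7.56 ± 2.41. Among the 11 tested Fox genes, Foxm1 was the only one called in stem against progenitor or stem against niche. Of all genes, 7.1% and 21.6% were called in these comparisons.

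Nfia and Tcf4 had the highest levels of all tested members in both GFP-positive groups and were lower in niche. Nfia was the highest tested member in niche as well. Nfia, a nuclear factor I protein that acts in the switch to gliogenesis and in astrocytes (chr4:97772734-98118874, plus strand), was at 351, 252, 378 and 341 RPKM in stem and at 356, 433, 342 and 341 in progenitor. It was at 53.2, 109, 141 and 106 in niche. The GFP-positive groups overlapped and every niche library lay below both. The difference was 1.75 ± 0.30 (adjusted p = 0.000532) in stem against niche, 1.91 ± 0.30 (adjusted p = 0.000508) in progenitor against niche and -0.16 ± 0.30 (adjusted p = 0.886) in stem against progenitor. Its mean level lay at percentile 96.6 of all tested genes in stem, 96.7 in progenitor and 89.6 in niche. Astrocyte genes did not order the groups as Nfia did. All 9 tested were lower in stem than in niche, and 4 were lower in progenitor than in niche. In stem against progenitor 5 were lower, and none was higher in any comparison. Their part in the Nfia result was not tested.

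Tcf4, a bHLH E protein that pairs with proneural bHLH factors and is bound by the Id inhibitors, was at 195, 142, 210 and 201 RPKM in stem and at 137, 244, 219 and 227 in progenitor. It was at 16.5, 36.9, 75.0 and 66.9 in niche, below every other library. The difference was 2.11 ± 0.40 (adjusted p = 0.00139) in stem against niche and 2.24 ± 0.40 (adjusted p = 0.00166) in progenitor against niche. The 4 calls of Nfia and Tcf4 held in all 21 alternatives, although niche replicate 1 was the lowest library for both. Without it the differences were 1.40 and 1.54 for Nfia and 1.61 and 1.71 for Tcf4. Other helix-loop-helix genes were taken from a list of 28, of which 13 were tested. In stem against progenitor 3 were lower and none higher: Nhlh2 (-2.56 ± 0.56), Id4 (-2.07 ± 0.38) and Id3 (-1.87 ± 0.51). In stem against niche Neurog2, the proneural factor of intermediate progenitors, was higher (3.18 ± 0.40), and Id3 (-4.01 ± 0.51), Hes1 (-2.39 ± 0.48) and Id4 (-2.23 ± 0.38) were lower. Neurog2 was higher (3.23 ± 0.40) and Id3 lower (-2.13 ± 0.51) in progenitor than in niche.

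Heyl, a bHLH repressor induced by Notch signalling that is known from both neural precursors and mural cells (chr4:123233556-123249875, plus strand), was lower in stem than in progenitor. It was at 1.10, 1.41, 0.0622 and 0.0475 RPKM in stem, at 8.88, 5.43, 7.62 and 4.31 in progenitor and at 0.232, 9.34, 9.89 and 3.84 in niche. The stem libraries lay below all progenitor libraries, while in niche only replicate 1 fell among the stem values. The difference was -2.25 ± 0.63 (adjusted p = 0.0418), and 0.0504 with the replicate number as a block. The call was lost without any single stem or progenitor library (0.0630 to 0.128), without niche replicate 4 (0.0568), at a pseudocount of 0.1 RPKM (0.0546) or 4 RPKM (0.0545) and with no filter on low values (0.0552). In stem against niche the difference was -1.73 ± 0.63 (adjusted p = 0.0636) and, without niche replicate 1, -2.52 ± 0.47 (adjusted p = 0.00105). Of 8 tested mural cell genes, 5 were lower in stem than in progenitor and 6 lower in stem than in niche. Their sum was 33.4 to 232 RPKM in stem, in progenitor 805 to 1993 and in niche 727 to 2724. The defining mural marker Rgs5 was at 2.55 to 38.4 RPKM in stem, in progenitor 123 to 179 and in niche 116 to 283. The part of mural cell RNA in the Heyl result was not tested.

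**Figure D3:**
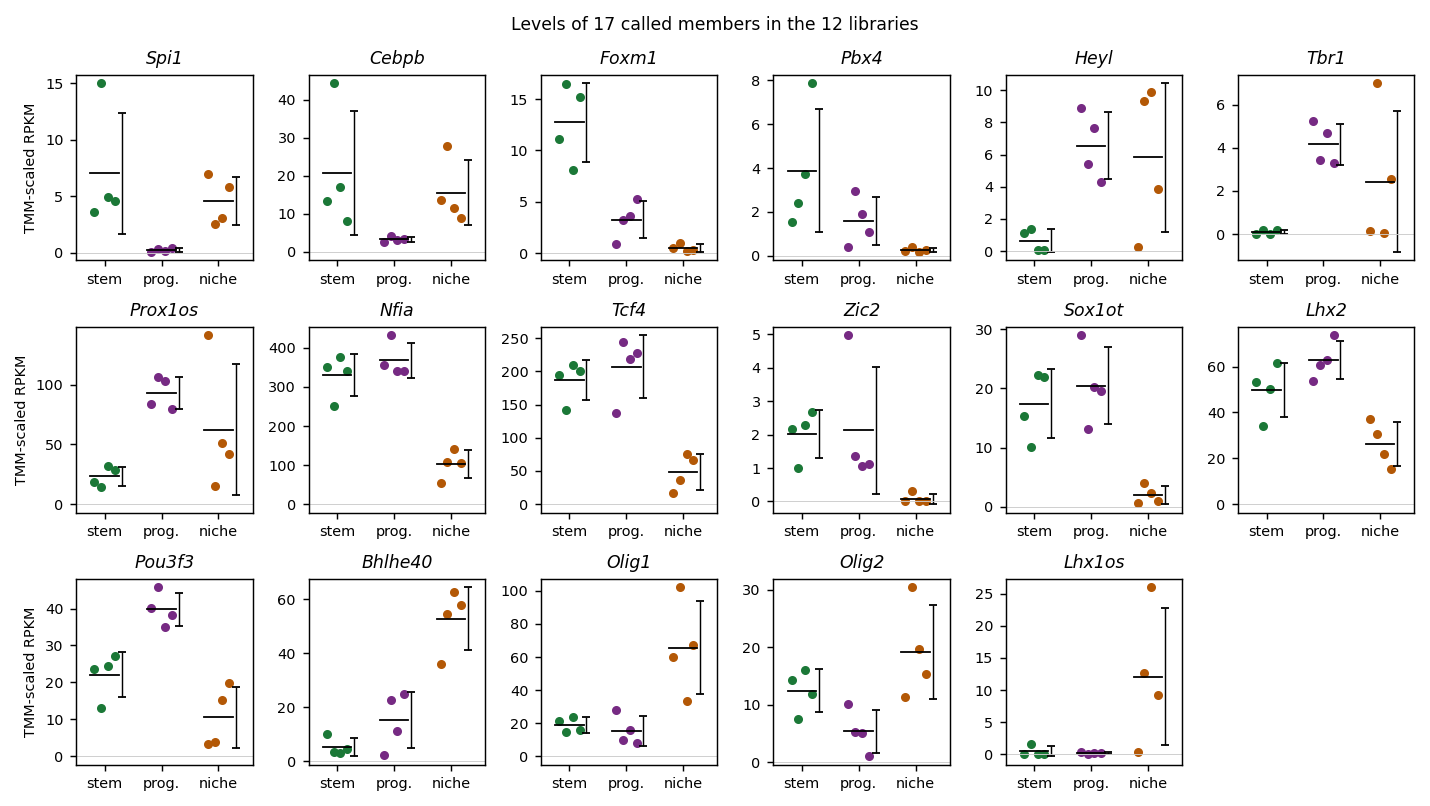
TMM-scaled RPKM of 17 members called in at least 1 comparison, with 1 point per library, a horizontal line at the mean and a bar of ± 1 SD over n = 4. Spi1 and Cebpb are lowest in progenitor, Foxm1 is highest in stem, Nfia, Tcf4 and Sox1ot are lowest in niche, and Olig1 and Bhlhe40 are highest in niche.

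Of the 8 tested factors of the neuronal lineage, 3 were higher in progenitor than in niche, where 5.64% of all genes were. Tbr1 alone was called in stem against progenitor, where 7.1% of all genes were called. Tbr1, a T-box factor of young glutamatergic neurons (chr2:61802930-61814114, plus strand), was at 0, 0.175, 0 and 0.181 RPKM in stem, from 7 reads in all. It was at 5.24, 3.46, 4.71 and 3.28 in progenitor and at 0.133, 7.01, 0.0537 and 2.54 in niche. The stem libraries lay far below all progenitor libraries, and niche was split between high and low libraries. The difference was -2.23 ± 0.56 (adjusted p = 0.0219) in stem against progenitor, but it was lost without stem replicate 1 (0.0666), 2 (0.0605), 3 (0.0605) or 4 (0.0543) or progenitor replicate 1 (0.0746) or 3 (0.0587). In progenitor against niche it was 1.08 ± 0.56 (adjusted p = 0.226), and it was called without niche replicate 2 (0.0337). Without niche replicate 1 it was called in stem against niche (-1.61 ± 0.57, adjusted p = 0.0473).

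Of the 7 tested neuronal marker genes, 5 were lower in stem than in progenitor, with Stmn2, a microtubule regulator of young neurons, at 2.41 ± 1.34 and 232 ± 96.1 RPKM. The sum of these genes was 948 to 1628 RPKM in stem, in progenitor 2579 to 5476 and in niche 888 to 2242. Most of the stem sum was Stmn1, at 1278 ± 287 RPKM in stem and 811 ± 606 in niche. Stmn1 was not called in stem against progenitor or in stem against niche. In stem against niche 4 of the 7 genes were lower and none higher, with Stmn2 at 101.5 ± 29.8 RPKM in niche. The part of neuronal RNA in the Tbr1 result was not tested. Bcl11a, a zinc finger factor of cortical and hippocampal neurons, was at 3.35 to 5.85 RPKM in stem, in progenitor 5.50 to 6.94 and in niche 0.30 to 4.92. It was not called in any comparison. Dlx1, a homeodomain factor of interneurons, was at 0.847 to 1.84, 0.148 to 2.84 and 0 to 0.987, and was not called either.

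Lhx2 and Pou3f3, factors that pattern and maintain the telencephalon and its neurons, were higher in progenitor than in niche. Pou3f3, a POU homeodomain factor of cortical and hippocampal neurons (chr1:42695768-42703176, plus strand), was at 23.6, 13.2, 24.3 and 27.1 RPKM in stem and at 40.3, 45.7, 34.9 and 38.2 in progenitor. It was at 3.37, 3.79, 15.2 and 19.9 in niche. Progenitor lay above all other libraries, and niche and stem overlapped at stem replicate 2. The difference in progenitor against niche was 2.15 ± 0.50 (adjusted p = 0.0118), and the call held in all 21 alternatives. In stem against progenitor it was -0.86 ± 0.50 (adjusted p = 0.431), and with only these groups in the fit 0.0336 was the adjusted p. In stem against niche it was 1.28 ± 0.50 (adjusted p = 0.0799), and it was called without niche replicate 4 (0.0262), with voom (0.0451) and with scaling by library total alone (0.0251). Its relative Pou3f4, which acts with it in neural precursors, was at 8.29 to 11.8 RPKM in stem, in progenitor 1.83 to 6.23 and in niche 0.0649 to 13.1. All stem libraries of Pou3f4 lay above all progenitor libraries, but the difference did not pass the test (1.13 ± 0.63, adjusted p = 0.407).

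Lhx2, a LIM homeodomain factor of the cortical primordium and hippocampus (chr2:38339281-38369733, plus strand), was at 53.3, 34.0, 50.1 and 61.7 RPKM in stem, 53.9, 60.7, 62.8 and 73.7 in progenitor and 37.3, 30.8, 21.9 and 15.4 in niche. Niche lay below progenitor throughout and met stem at stem replicate 2. The difference was 1.29 ± 0.33 (adjusted p = 0.0203) in progenitor against niche, lost without progenitor replicate 2 (0.0562), 3 (0.0606) or 4 (0.0729) or niche replicate 3 (0.0542) or 4 (0.0690), with median-of-ratios scaling (0.0974) and with only the compared groups in the fit (0.0633). In stem against niche it was 0.93 ± 0.33 (adjusted p = 0.0559), and it was called without stem replicate 2 (0.0436), without niche replicate 1 (0.0110) and with scaling by library total alone (0.00172).

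Other neural factors, taken from a list of 45 genes of which 22 were tested, were higher in progenitor than in niche in 4 cases and lower in 1. Eomes, the T-box factor of intermediate progenitors, changed by 4.63 ± 0.39, Emx1, a homeodomain factor of the dorsal telencephalon, by 3.89 ± 0.46, and Zbtb20, a hippocampal zinc finger factor, by 1.92 ± 0.50. Stem against niche had 6 higher, among them Eomes (3.80 ± 0.39) and Zeb1 (2.53 ± 0.53), and Epas1, the hypoxia factor of vessels, was lower (-2.68 ± 0.51). In stem against progenitor Emx1 alone of this list was called (-1.88 ± 0.46).

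The windows of 250 bases before the starts of Pou3f3 and Lhx2 are shown because both genes were higher in progenitor than in niche, while their promoters share none of the motifs searched. The window of Pou3f3 (chr1:42695518-42695767, plus strand) holds 3 CCAAT boxes, in capitals, a motif present in 33.8% of all windows. The window of Lhx2 (chr2:38339031-38339280, plus strand) holds none of the motifs. A site CANNTG was found in 15 of the 32 matched windows, where 66.2% of all windows hold one, and in neither of these. Some matched windows lie far from the annotated gene start, such as that of Nfia, or wholly in annotated exons, such as that of Dlx1. The difference from the share of all windows was not tested.
Pou3f3: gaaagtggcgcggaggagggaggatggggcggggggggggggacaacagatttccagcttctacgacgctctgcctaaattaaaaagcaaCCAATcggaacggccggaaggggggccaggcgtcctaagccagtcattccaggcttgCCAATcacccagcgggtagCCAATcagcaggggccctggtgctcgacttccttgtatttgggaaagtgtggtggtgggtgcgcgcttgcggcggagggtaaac
Lhx2: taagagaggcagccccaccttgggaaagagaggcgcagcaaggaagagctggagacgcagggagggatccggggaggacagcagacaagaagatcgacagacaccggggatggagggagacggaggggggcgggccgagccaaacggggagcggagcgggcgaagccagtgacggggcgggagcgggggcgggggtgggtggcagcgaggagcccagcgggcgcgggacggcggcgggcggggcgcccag

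Olig1 and Olig2, neighbouring bHLH factors of the oligodendrocyte lineage, were higher in niche than in progenitor. Olig1 (chr16:91269772-91271933, plus strand) was at 21.6, 14.6, 24.1 and 15.6 RPKM in stem, at 27.9, 10.1, 15.7 and 8.00 in progenitor and at 60.2, 102, 33.5 and 67.1 in niche. Every niche library lay above every other library, and stem and progenitor overlapped. The difference was -1.67 ± 0.44 (adjusted p = 0.0129) in stem against niche, lost with scaling by library total alone (0.0925), and -2.06 ± 0.44 (adjusted p = 0.00584) in progenitor against niche, which held in all 21 alternatives. Olig2 (chr16:91225457-91228677, plus strand) was at 14.3, 7.60, 16.0 and 11.9 RPKM in stem, at 10.2, 5.20, 5.16 and 1.03 in progenitor and at 11.3, 30.4, 19.6 and 15.3 in niche. Here the mean of stem lay between those of the other groups, and stem overlapped with both.

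The Olig2 difference in progenitor against niche was -1.81 ± 0.53 (adjusted p = 0.0363). It was lost without stem replicate 1 (0.0538), 3 (0.0519) or 4 (0.0543), progenitor replicate 2 (0.0759), 3 (0.0799) or 4 (0.131) or niche replicate 2 (0.0697) or 3 (0.0526), with only the compared groups in the fit (0.108) and with scaling by library total alone (0.124). Oligodendrocyte markers did not all order the groups alike. All 10 tested were lower in stem than in niche. Of these, 6 were lower in stem than in progenitor, and none of the 6 was called in progenitor against niche. Another 3 (Neu4, Enpp6 and Pdgfra) were lower in progenitor than in niche, as Olig1 was. These 3 were not called in stem against progenitor, and neither was Olig1. The sum of the 10 markers was 148 to 624 RPKM in stem, in progenitor 2181 to 6199 and in niche 2798 to 5920. The part of oligodendrocyte RNA in the Olig1 and Olig2 results was not tested. The RNA gene Nkx2-2os, which overlaps the oligodendrocyte factor gene Nkx2-2 on the other strand by 278 exon bases, was at 0 to 1.49, 0 to 2.30 and 0 to 8.99. It was not called with all libraries, and without niche replicate 1 it was lower in stem (-2.59 ± 0.54, adjusted p = 0.00234) and in progenitor (-2.32 ± 0.54, adjusted p = 0.00810) than in niche.

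Among members known from vessels and meninges, Zic2 was called against niche, Heyl was called against progenitor as given above, and Foxf2 and Zic4 were not called with all libraries. Foxf2, a forkhead factor of brain pericytes (chr13:31625816-31631403, plus strand), was at 0.909, 1.69, 1.29 and 0 RPKM in stem, 0.636, 1.45, 1.13 and 0.267 in progenitor and 0.428, 1.65, 4.32 and 19.8 in niche. The niche libraries were spread over all others. The differences did not pass the test in stem against niche (-1.29 ± 0.66, adjusted p = 0.180) or in progenitor against niche (-1.32 ± 0.66, adjusted p = 0.214). They were called without niche replicate 1 (-1.94 ± 0.62, adjusted p = 0.0309, and -1.98 ± 0.62, adjusted p = 0.0393). Zic4, a zinc finger factor of dorsal neural tissue and meninges, was at 0.513 to 0.952 RPKM in stem, in progenitor 1.48 to 2.86 and in niche 0.0218 to 5.41. All its stem libraries lay below all progenitor libraries, and the difference did not pass the test (-0.90 ± 0.48, adjusted p = 0.379).

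Zic2, a relative of Zic4 (chr14:122475435-122479852, plus strand), was higher in both GFP-positive groups than in niche. It was at 2.16, 1.0, 2.29 and 2.67 RPKM in stem, at 4.97, 1.36, 1.06 and 1.11 in progenitor and at 0, 0.315, 0 and 0 in niche. Every niche library lay below every GFP-positive library. The niche libraries held 3 reads of Zic2 in all, against 66 in stem and 92 in progenitor. The ratio of scaled reads was 16.8 (95% counting interval 5.51 to 83.6) for stem and 14.2 (4.71 to 70.2) for progenitor, an interval that covers counting error only. On the log2(RPKM + 1) scale the difference was 1.46 ± 0.41 (adjusted p = 0.0178) in stem against niche, lost without stem replicate 4 (0.0543), and 1.39 ± 0.41 (adjusted p = 0.0381) in progenitor against niche. The latter had an adjusted p of 0.0546 with the replicate block. It was lost without stem replicate 1 (0.0520), without any single progenitor library (0.0592 to 0.0708), without niche replicate 3 (0.0664) or 4 (0.0714), at a pseudocount of 4 RPKM (0.0825), with no filter (0.0540) and with only the compared groups in the fit (0.0699).

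Of 15 tested members with broad expression in many tissues, none was called in stem against progenitor. In stem against niche Pbx4 was higher and Bhlhe40 lower, and in progenitor against niche only Bhlhe40 was called, as lower. Of all genes, 7.1%, 21.6% and 11.4% were called in these comparisons. Bhlhe40, a bHLH repressor that responds to light, hypoxia and growth signals (chr6:108660629-108666925, plus strand), was at 10.05, 3.17, 2.86 and 4.33 RPKM in stem, at 2.40, 22.5, 11.3 and 24.9 in progenitor and at 36.0, 54.6, 62.7 and 57.9 in niche. Every niche library lay above every other library, and progenitor replicate 1 lay below the other 3 of its group. The difference was -3.25 ± 0.59 (adjusted p = 0.000947) in stem against niche, a call that held in all 21 alternatives. In progenitor against niche it was -2.06 ± 0.59 (adjusted p = 0.0326), lost without progenitor replicate 3 (0.0825) or niche replicate 2 (0.0542), 3 (0.0585) or 4 (0.0554), with scaling by library total alone (0.143) and with only the compared groups in the fit (0.0650). In stem against progenitor it was -1.19 ± 0.59 (adjusted p = 0.321), and it was called without progenitor replicate 1 (0.0402).

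Pbx4, a TALE homeodomain cofactor of Hox proteins (chr8:69832491-69872292, plus strand), was at 1.55, 2.39, 3.72 and 7.88 RPKM in stem, 0.380, 2.95, 1.92 and 1.10 in progenitor and 0.227, 0.401, 0.183 and 0.260 in niche. All stem libraries lay above all niche libraries, and progenitor overlapped with both. The difference in stem against niche was 1.79 ± 0.46 (adjusted p = 0.0112), and the call held in all 21 alternatives. Pbxip1, a PBX-interacting protein that matched the pattern by name, was at 5.95, 5.51, 3.72 and 5.0 RPKM in stem, 12.6, 17.2, 13.7 and 17.5 in progenitor and 1.67, 38.8, 26.1 and 35.2 in niche. Stem lay below progenitor throughout, and niche replicate 1 lay below every other library while the other 3 niche libraries lay above. No comparison of Pbxip1 passed the test with all libraries. Without niche replicate 1 it was lower in stem than in niche (-2.59 ± 0.30, adjusted p = 2.2e-05) and than in progenitor (-1.42 ± 0.28, adjusted p = 0.00368), and lower in progenitor than in niche (-1.17 ± 0.30, adjusted p = 0.0138).

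No forkhead factor of insulin signalling or of general transcription passed the test with all libraries. Foxo1, which insulin signalling keeps out of the nucleus, was at 8.73 to 13.8 RPKM in stem, in progenitor 11.2 to 26.9 and in niche 16.8 to 26.2, with all niche libraries above all stem libraries (-1.0 ± 0.39, adjusted p = 0.0787). It was called lower in stem than in niche without niche replicate 1 (-1.02 ± 0.34, adjusted p = 0.0368). Foxk1, a forkhead repressor of starvation genes, was at 0.417 to 1.66, 0.821 to 1.27 and 2.32 to 3.78 RPKM, so its niche libraries lay above all others (-0.96 ± 0.37, adjusted p = 0.0770, for stem and -1.03 ± 0.37, adjusted p = 0.0880, for progenitor). Foxj2, Foxj3, Foxn2, Foxk2 and Foxo4 overlapped between the groups in every comparison.

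RNA genes beside a factor gene gave some of the largest differences. Sox1ot, a long RNA whose gene spans that of the stem cell factor Sox1 on the same strand without sharing exon bases (chr8:12385771-12436768, plus strand), was at 15.3, 10.2, 22.2 and 22.0 RPKM in stem. It was at 29.0, 13.1, 20.2 and 19.6 in progenitor and at 0.613, 4.04, 2.39 and 0.977 in niche. The GFP-positive groups overlapped and every niche library lay below them. The difference was 2.70 ± 0.47 (adjusted p = 0.000724) in stem against niche and 2.93 ± 0.47 (adjusted p = 0.000702) in progenitor against niche, and both calls held in all 21 alternatives. Sox1 itself, which is no member, was at 24.0 ± 7.30 RPKM in stem, 13.3 ± 2.66 in progenitor and 2.73 ± 2.65 in the niche libraries. The window before the start of Sox1ot (chr8:12385521-12385770, plus strand) is shown for its 2 copies of the SOX core AACAAT, in capitals, of which 1 reads ATTGTT on this strand. The core is present in 9.43% of all windows, and the window also holds 1 site of the form CANNTG.
Sox1ot: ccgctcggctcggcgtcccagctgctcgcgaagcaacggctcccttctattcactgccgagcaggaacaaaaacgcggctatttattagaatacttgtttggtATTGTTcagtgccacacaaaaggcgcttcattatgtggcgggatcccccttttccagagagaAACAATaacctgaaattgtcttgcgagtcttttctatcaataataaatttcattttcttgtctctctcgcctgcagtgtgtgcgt

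Prox1os, an RNA gene on the strand opposite Prox1, the homeodomain gene of granule neurons (chr1:190170296-190217276, plus strand), was at 18.7, 14.1, 32.0 and 28.2 RPKM in stem. It was at 83.8, 106, 104 and 79.9 in progenitor and at 142, 15.2, 50.9 and 42.2 in niche. Stem lay below progenitor throughout, and the niche libraries ran from the level of stem to above that of progenitor. The difference in stem against progenitor was -2.02 ± 0.51 (adjusted p = 0.0225), lost without stem replicate 1 (0.0679) or 2 (0.0877) or progenitor replicate 1 (0.0563), 2 (0.0669) or 3 (0.0645) and with median-of-ratios scaling (0.0591). Without niche replicate 1, the highest library, Prox1os was higher in progenitor than in niche (1.41 ± 0.38, adjusted p = 0.0182). Without niche replicate 2 it was lower in stem than in niche (adjusted p = 0.0146). With scaling by library total alone it was higher in progenitor than in niche (adjusted p = 0.0172). Prox1os shares 133 of its 828 exon bases with Prox1, and where counting did not use strand, reads of these bases cannot be told apart.

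Lhx1os, an RNA gene that starts 124 bases from the homeodomain gene Lhx1 on the other strand (chr11:84525660-84535831, plus strand), was highest in niche. It was at 0, 1.61, 0.0945 and 0.0961 RPKM in stem, 0.420, 0, 0.173 and 0.151 in progenitor and 0.282, 12.6, 26.0 and 9.29 in niche. Niche replicates 2 to 4 lay above all other libraries and niche replicate 1 lay among them. The difference was -2.65 ± 0.71 (adjusted p = 0.0145) in stem against niche and -2.83 ± 0.71 (adjusted p = 0.0177) in progenitor against niche, and the latter was lost without progenitor replicate 2 (0.0530). Without niche replicate 1 the differences were -3.69 ± 0.47 and -3.88 ± 0.47. Lhx1os passed the filter only through stem replicate 2 and niche replicates 2 to 4. It could therefore not be tested with any of these libraries left out, and its calls rest on the group through which it passed. Otx2os1, an RNA gene overlapping Otx2, the homeodomain gene of the choroid plexus, was at 102, 0.155, 4.48 and 0.554 RPKM in niche, at most 0.161 in stem and at most 0.129 in progenitor, and did not pass the filter. Ttr, the abundant choroid plexus gene, was at 9369, 4106, 9178 and 6801 RPKM in niche replicates 1 to 4. It was at 77.8 to 478 in progenitor and 13.1 to 69.2 in stem. Niche replicate 1 was thus highest in Ttr and in Otx2os1 and lowest of its group in Lhx1os. The part of choroid plexus RNA in the Lhx1os and Otx2os1 values was not tested.

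By family, Foxm1 was the only Fox gene called in stem against progenitor and in stem against niche, of 11 tested. Of all genes, 7.1% and 21.6% were called there. Of 4 tested Olig and Bhlh genes, Olig1 and Bhlhe40 were lower in stem than in niche, where 10.7% of all genes were lower. Both and Olig2 were lower in progenitor than in niche, where 5.75% of all genes were lower. The fourth, Bhlhb9, matched by name and ranged over 12 to 26.1, 12 to 25.7 and 1.26 to 28.6 RPKM. Maff and Mafk, which encode small Maf partners of other bZIP proteins, were not called. Maff was at 0.0601 to 0.502 RPKM in stem and 0.523 to 4.02 in progenitor without overlap (-0.85 ± 0.50, adjusted p = 0.441). Of the 4 tested Pbx and Meis genes, only Pbx4 was called with all libraries. The remaining tested members, Foxp2, Meis3, Pbx2, Runx1t1, Six5 and Sox15, passed no test, and Sox15 was at 4.46 to 5.46, 3.30 to 5.45 and 5.06 to 10.1 RPKM.

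The 7 members that did not pass the filter were Bhlha9, Dlx3, Foxd2os, Hoxb3, Otx2os1, Pou5f2 and Sox6os. Foxd2os and Sox6os had 0 reads in niche (a count of 0 allows up to 3), 6 and 38 reads in stem and 54 and 26 reads in progenitor. Hoxb3, the only Hox gene among the members, had 1 read in stem, 3 in progenitor and 5 in niche. These reads rest on an exon length of 88 bases, the shortest that made them whole, where the annotation gives 4251. They are therefore not read as absence of Hoxb3. Hox genes pattern the hindbrain and spinal cord. Pou5f2 had 30, 60 and 1 reads, Dlx3 had 10, 36 and 22, and Bhlha9 had 13, 8 and 72.

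The count of members called against niche depended on niche replicate 1. Without it, 18 members were called in stem against niche (8 higher and 10 lower, 40.0%, where 29.8% of all genes were called) and 18 in progenitor against niche (9 higher and 9 lower, 40.0%, against 19.6%). Among those added in stem against niche were Lhx2 and Pou3f4, higher in stem, and Foxf2, Foxo1, Pbxip1, Heyl, Nkx2-2os and Tbr1, lower in stem. In progenitor against niche they were Foxm1 and Prox1os, higher in progenitor, and Foxf2, Nkx2-2os and Pbxip1, lower in progenitor. Pou3f4 was at 13.1 RPKM in niche replicate 1 and at most 2.26 in the other niche libraries, and without it the difference was 2.30 ± 0.48 (adjusted p = 0.00239). Without this library and progenitor replicate 1 together, the members added in stem against progenitor were Olig2 (1.64, adjusted p = 0.0291), Pbxip1 (-1.52, adjusted p = 0.00328) and Bhlhe40 (-1.83, adjusted p = 0.00908). The count in progenitor against niche was 7 without progenitor replicate 2 or 3 and 8 without progenitor replicate 4 or niche replicate 3, and the share of all genes called was then 6.9%, 6.52%, 6.62% and 11.2%. The count in stem against progenitor was smaller without each stem or progenitor library. It was 1 without stem replicate 2 or progenitor replicate 3, 2 without stem replicate 1 or progenitor replicate 1, 3 without stem replicate 3 or 4 or progenitor replicate 2, and 4 without progenitor replicate 4. The share of all genes called fell as well, from 7.1% to between 4.28% and 5.76% in these 8 fits.

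**Figure D4:**
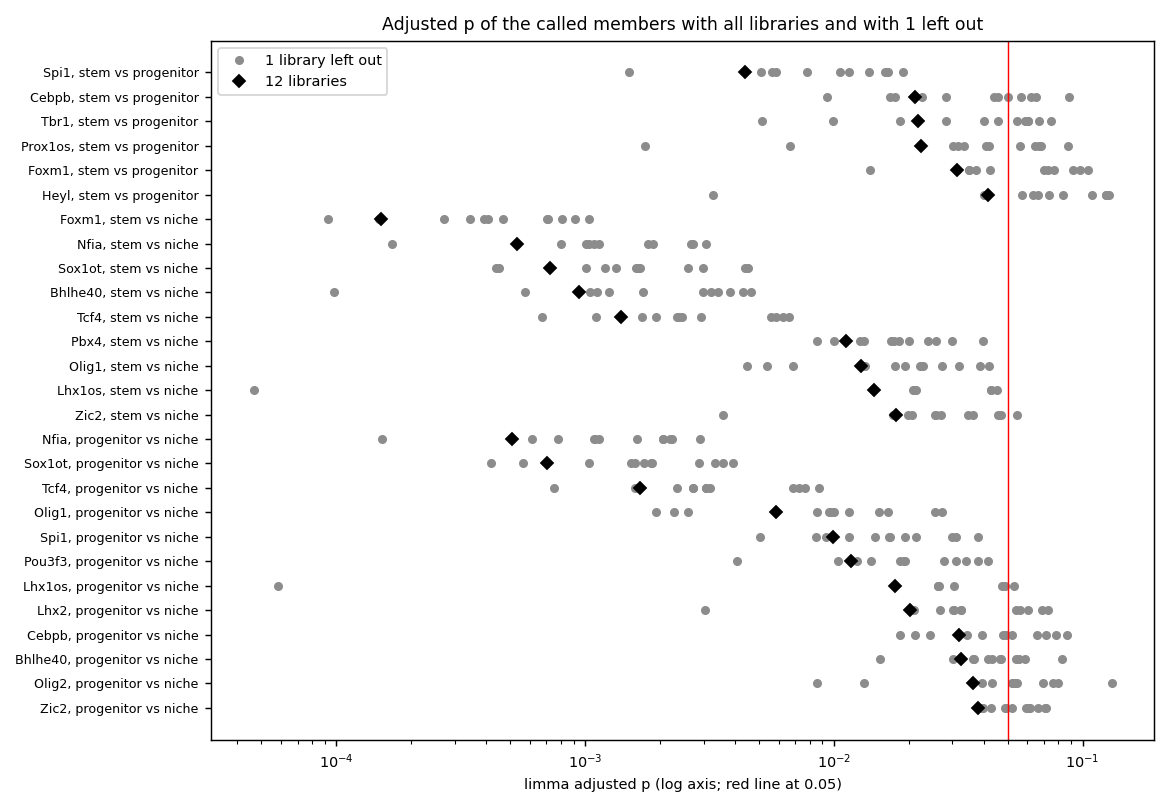
Adjusted p (limma, log axis) of the calls of 17 members with all 12 libraries (black diamonds) and with 1 library left out (grey points), with a red line at 0.05. The calls of Foxm1, Nfia, Sox1ot, Bhlhe40 and Tcf4 in stem against niche and of Spi1 in stem against progenitor stay left of the line throughout, while those of Heyl, Cebpb, Tbr1 and Prox1os in stem against progenitor cross it.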

How the data were processed

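RNA of sorted dentate gyrus cells was sequenced in 12 libraries, 4 per group. The deposited values are on a log2 scale and were read as log2(RPKM + 1), since 100% of the values above 0 gave whole reads within a tolerance of 1e-05 reads once the log was undone. The exon length was the annotated one for 1232 genes and the shortest that made all libraries whole for 9278. The build was GRCm38 (mm10), per the submitters' processing notes. The sources used here give no aligner, counter or use of strand (not given in the sources used here). Floors and counting intervals cover counting error only, since amplified reads without molecular identifiers are not independent molecules.

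The filter asked for 10 reads per median library (a CPM of 0.767) in 4 libraries or more and for 15 reads in total, and 8364 genes passed. RPKM values were scaled by trimmed means of M-values (TMM), log2 was taken after adding a pseudocount of 1 RPKM, and limma 3.58.1 in R 4.3.3 was fitted over all 12 libraries with 1 mean per group (empirical Bayes with trend and robust spread, two-sided, Benjamini-Hochberg over all tested genes, threshold 0.05). The fit was tested on simulated reads with the same dispersion for all genes and changes in the stem libraries only. Such reads do not represent libraries that stand apart from their group. A fold change is a difference of log2(value + pseudocount), which understates the change of low genes. The series' design text states that the 3 populations came from each of the 4 replicates, so the replicate number was taken as a pairing for an alternative fit with a block. Same-numbered libraries deviated together only weakly (correlations of -0.13 to 0.21). Named members were those past the threshold, with all values for the largest changes and for the best-known factors. Marker lists are described by counts and sums. The members, the lists and the libraries set apart were chosen with earlier results of these data known. Results of some genes are not reported here, and counts over members include them.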

Additional observations from a re-analysis of the deposited data

Results flagged for a closer look

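In 57 groups of 4 libraries (19 named members in each of the 3 groups), 4 held a library whose gap to the nearest other, as a share of the group's range, passed Dixon's limit for 4 values. Gaps were taken on the log2(RPKM + 1) scale. Chance flags about 1 in 20 groups of normally spread values, a rate that does not hold for groups near 0, such as Lhx1os in stem and Zic2 in niche. Cebpa was at 10.8 RPKM in stem replicate 2 (also highest in summed macrophage genes), against 3.89 to 4.47 in the other stem libraries. Lhx1os was at 1.61 RPKM in the same library, against at most 0.0961 in the others. Zic2 was at 4.97 RPKM in progenitor replicate 1, where the others of its group were at 1.06 to 1.36. It was at 0.315 in niche replicate 2, where the other niche libraries were at 0, so any value above 0 would have been flagged.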

How the results depend on the processing

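No named fold change turned its sign where it was called. With all libraries, 6, 9 and 13 members were called in stem against progenitor, stem against niche and progenitor against niche. With only the compared groups in the fit, 11 (5 higher and 6 lower, with all 6 of the first count shared) were called in stem against progenitor and 6 (4 higher and 2 lower) in progenitor against niche, where 17.5% and 6.75% of all genes were. Scaling by library total alone gave 10 higher in stem against niche and 3 lower in progenitor against niche. Without progenitor replicate 1 and niche replicate 1 together, 20 members were called in stem against niche, 11 of them lower, and 5 were lower in stem against progenitor. Leaving out 1 library gave 1 to 7 members in stem against progenitor (1 to 3 higher and 0 to 4 lower), 8 to 18 in stem against niche (5 to 8 higher and 2 to 10 lower) and 7 to 18 in progenitor against niche (4 to 9 higher and 2 to 9 lower). With the replicate block, 5, 9 and 12 members were called, and Heyl in stem against progenitor and Zic2 in progenitor against niche were the calls lost. The cause of these shifts was not tested. The planned edgeR test on the recovered reads was not run, and voom on the same reads gave 6, 12 and 13 members. Lhx1os failed the filter in 4 of the 12 fits with a library left out, those without stem replicate 2 or niche replicate 2, 3 or 4. Depth limits members such as Tbr1, Zic2 and Lhx1os, which rest on few reads in some groups.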

Other observations

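The table supplied is nearly free of minus-strand genes, with 10573 listed genes on the plus strand and 6 on the minus strand, and none of the 131 annotated minus-strand genes that match the family pattern is among the 60 listed. Of the 135 annotated plus-strand genes that match, 75 are not listed.

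The 4 matching genes above 0 in fewer than 4 libraries were Foxp3, Foxr2, Hoxaas3 and Six3. Foxp3 was at 0 reads in all 12 libraries, and Foxr2 had 3 and 6 reads in progenitor replicates 3 and 4. Six3, a homeodomain factor of the forebrain and eye, had 96 reads in niche replicate 3, 17 in progenitor replicate 1 and 1 in niche replicate 2.

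Levels of the members spanned most of the range of tested genes. In stem, Tbr1 lay at percentile 1.8 and Nfia at 96.6 of all tested genes, and Spi1 lay at percentile 49.1 in stem, 1.7 in progenitor and 36.3 in niche. Foxm1 lay at percentile 62.1, 30.5 and 6.9.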
